A study of Mus musculus with 6 samples.

Results

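Cytosolic ribosomal proteins are the protein subunits of the ribosome that translates nuclear mRNAs. They were followed here as the 105 probe sets, of 45037 on the array, that carried a single gene symbol naming an Rpl or Rps subunit, Rplp0, Rplp1, Rplp2 or Rpsa. These probe sets belonged to 49 genes. Kinases of the Rps6k family and pseudogenes were left out. A further 110 probe sets carried a ribosomal protein together with at least 1 other symbol and were kept apart. Rplp1 had no single-symbol probe set.

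The tissue was the mammary fat pad (pads 4 and 9) of female mice on the C57BL/6J background, 3 of them wild type (WT) and 3 Pxmp2-/-, lacking a channel protein of the peroxisomal membrane. All 6 mice had their ovaries removed at 21 days of age and received estradiol at 31 days, and the pads were taken 8 h later. The study asked whether Pxmp2 is needed for the mammary epithelium to develop, and neither genotype was sampled without estradiol. The labels do not say how the Pxmp2 allele was disrupted.

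The ribosome has a large subunit, whose proteins are named Rpl, and a small subunit, whose proteins are named Rps. The acidic proteins Rplp0, Rplp1 and Rplp2 form the stalk of the large subunit, which recruits elongation factors. Subunits are made in matched amounts. Their mRNAs typically start with a terminal oligopyrimidine tract, a run of C and U at the very first bases, through which the mTOR pathway adjusts their translation. An array measures the mRNA and not its translation.

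The first bases of several members are shown because this tract is the sequence feature the family is known for. Sequences are from RefSeq, build GRCm38.p6, and run 5′ to 3′ in the direction of transcription, from 30 bases before to 25 bases after the annotated start. Capitals mark the longest uninterrupted run of C and T within 25 bases of the start, the earlier one on a tie. Runs were cut at the edge of that window. For Rpsa the last printed bases tie with the marked run. Rplp2 and Rpl38 were among the members with the brightest probe sets, and Rpl14, Rps6 and Rpsa among those with the smallest p-values below. Rps28 is a bright member without a long run, and Mrps25, a subunit of the mitochondrial ribosome, is given for contrast. The windows are chr7:141447621-141447675 (plus strand) for Rplp2, chr11:114668550-114668604 (plus) for Rpl38, chr9:120571487-120571541 (plus) for Rpl14, chr4:86857343-86857397 (minus) for Rps6, chr9:120127736-120127790 (plus) for Rpsa, chr17:33824538-33824592 (minus) for Rps28 and chr6:92183999-92184053 (minus) for Mrps25.
Rplp2: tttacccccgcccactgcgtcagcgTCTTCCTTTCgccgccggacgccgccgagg
Rpl38: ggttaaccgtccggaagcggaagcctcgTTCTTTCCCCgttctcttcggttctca
Rpl14: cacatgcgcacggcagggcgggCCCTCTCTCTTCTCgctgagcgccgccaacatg
Rps6: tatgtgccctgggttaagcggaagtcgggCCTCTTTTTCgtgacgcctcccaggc
Rpsa: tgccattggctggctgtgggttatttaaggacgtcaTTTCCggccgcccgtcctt
Rps28: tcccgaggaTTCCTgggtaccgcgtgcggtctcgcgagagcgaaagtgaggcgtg
Mrps25: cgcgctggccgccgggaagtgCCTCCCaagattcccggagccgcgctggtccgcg

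Of the 49 genes, 43 had an entry in the RefSeq promoter table, with 51 annotated starts. A run of at least 8 pyrimidines lay within 25 bases of the start in 23 of these 51 (45.1%), against 19.7% of all 32851 promoters and 20.5% of 73 promoters of mitochondrial ribosomal proteins. The letters CGGAAG, the core of binding sites of ETS factors, were searched on both strands of the whole 300 base window. They occurred in 60.8% of the cytosolic set, 53.4% of the mitochondrial set and 16.9% of all promoters. The letters AAGATGG, the core of YY1 sites, which can share the letters AAG with the former, occurred in 15.7%, 17.8% and 6.34%. The long pyrimidine run was thus more frequent in the cytosolic set than in the mitochondrial set, while both motifs occurred at similar shares in these sets. These are descriptions of letters in a window, and an annotated start can lie some bases away from the start used in this tissue.

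The tissue matched its label by adipocyte markers. Fabp4, Adipoq, Lpl and Retn had probe sets in the brightest band defined below. Of 12 probe sets of mammary epithelial keratins, Epcam and Cdh1, only 2 were past the level filter, so the values describe mainly the fat pad and not the epithelium. Pxmp2 itself (1417841_at) read 2643, 2465 and 2797 in WT mice and 308, 262 and 260 in Pxmp2-/- mice, so every array matched its label. Array medians lay between 98.5 and 105 arbitrary units and array maxima between 20504 and 22654. With 3 mice a genotype, the number of arrays limits the precision of every value.

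No ribosomal protein probe set passed the test between genotypes, and the differences of bright probe sets, which can understate a change, were small. Of the 105 probe sets, 96 (47 genes) were past the level filter, which kept probe sets brighter on average than the dimmest 40% of the array (intensity 59.1). The 9 below it belonged to Rps18 (3 probe sets), Rpsa, Rpl27a, Rps10, Rps24, Rps16 and Rpl3l, and the last 2 genes had no other probe set. None of the 96 passed a limma adjusted p of 0.05 (Benjamini-Hochberg over all 27022 tested probe sets), where 0.0629% of all tested probe sets did, and the smallest adjusted p among them was 0.171. Over all tested probe sets 17 passed on 6 arrays. That count was 6 without WT 1, 2 without WT 2, 33 without Pxmp2-/- 1 and 1 without WT 3, Pxmp2-/- 2 or Pxmp2-/- 3. At an unadjusted p under 0.05 there were 1 higher and 5 lower in Pxmp2-/- mice. The background shares at that p were 6.12% higher and 10.5% lower, against 1.04% and 5.21% of the members. With quantile normalization all tested probe sets split into 2129 higher and 2128 lower at that p, in place of 1655 and 2842.

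The members' differences were mostly below 0. Their median log2 difference (Pxmp2-/- minus WT) was -0.052, with quartiles at -0.098 and -0.027, beside -0.033 for all tested probe sets, with quartiles at -0.16 and 0.097. The difference was below 0 for 84 of 96 members (87.5%), against 57.3% of all tested probe sets. With quantile normalization it was below 0 for 79 members, against 50.1% of all. In 17 members every Pxmp2-/- mouse read below every WT mouse (17.7%, background 15.1%), and in none did every Pxmp2-/- mouse read above every WT mouse (background 7.73%). The share of fully separated members was near the background. For 71 of the 96 members (74%) the 95% confidence interval of limma lay within 1.25-fold of no difference in both directions, which held for 27.7% of all tested probe sets. Members share arrays, and many share a gene, so these counts are not independent observations.

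Many members lay near the top of the scale, so they were divided by mean intensity over all 6 arrays. The top band, above 10252, is more than 50% of the lowest array maximum. It held 25 members of 16 genes, and the upper band (5126 to 10252) 42 members of 25 genes. Only 3 members fell in the middle band (2050 to 5126), and 26 members of 20 genes lay in the lower band, below that but past the filter. A brightness belongs to a probe set, so it does not rank genes, and probe sets near the top can understate a change.

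**Figure D1:**
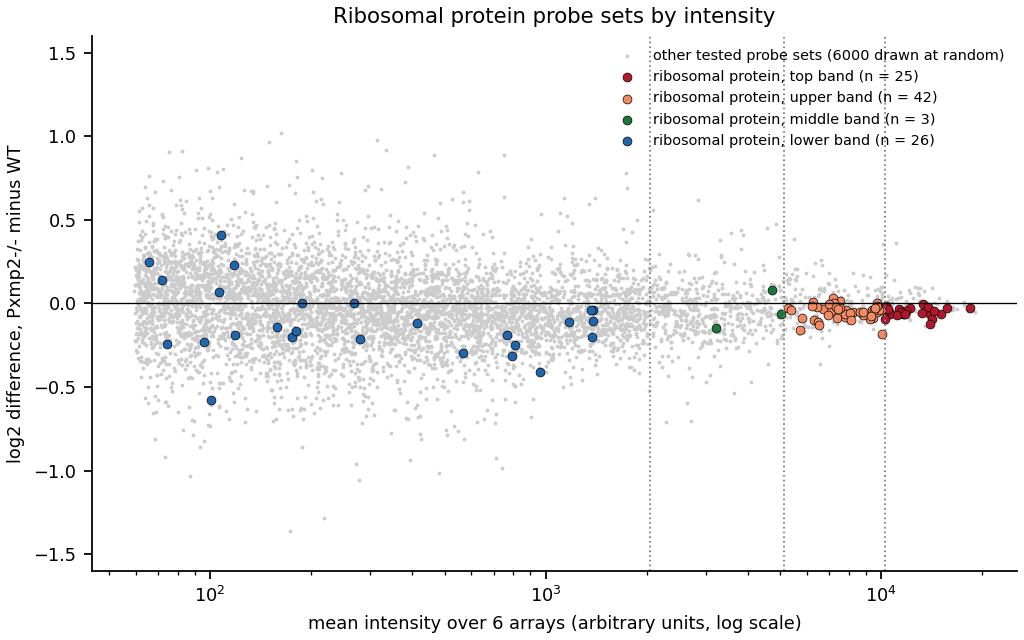
Log2 difference (Pxmp2-/- minus WT) against mean intensity over 6 arrays (log axis) for the 96 tested ribosomal protein probe sets, coloured by band, over 6000 other tested probe sets drawn at random. Dotted lines mark the band limits. The 67 members of the top and upper bands lie between -0.18 and 0.034, and the lower band spreads from -0.58 to 0.41.

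In the top band all 25 members were slightly lower in Pxmp2-/- mice, with a median of -0.051 and a range from -0.13 to -0.0055. All 320 tested probe sets of that band had a median of -0.017 and were below 0 in 64.4%. The 95% interval lay within 1.25-fold for all 25 members of the top band, and for 94.4% of all probe sets there. The median coefficient of variation of these 25 was 1.46% over WT mice and 3.9% over Pxmp2-/- mice, beside 4.02% and 3.59% for all probe sets of the band. In 3 of the 25 every Pxmp2-/- mouse read below every WT mouse (12%, background 7.19%). In the upper band 38 of 42 members were below 0, with a median of -0.045, beside -0.015 and 55.9% for the 845 probe sets of that band. The interval lay within 1.25-fold for 39 of the 42 (92.9%, background 68.4%), and the groups were separate and lower in 5 (11.9%, background 11.4%). In the lower band 19 of 26 members were below 0, with a median of -0.15 and quartiles at -0.23 and -0.0088, beside -0.034 and 56.6% for all 23603 probe sets there. The interval lay within 1.25-fold for 6 of the 26, a share of 23.1% as in the whole band. The groups of the lower band were separate and lower in 8 members (30.8%, background 15.1%) and separate and higher in none (background 8.05%). No member in the top band (background 0.312% higher and 0% lower) or the upper band (1.78% and 1.89%) had a limma unadjusted p under 0.05. The 6 that did were all in the lower band, 5 lower (19.2%, background 11.3%) and 1 higher (3.85%, background 6.61%).

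The brightest members were nearly level. Rps29, a small zinc-binding protein of the small subunit (1438859_x_at), read 18478, 18372 and 18750 in WT mice and 18314, 17858 and 18475 in Pxmp2-/- mice. These values overlapped, and the log2 difference was -0.025 ± 0.077 (SE, limma adjusted p = 0.891). Rplp2 (1415879_a_at) read 15500, 15511 and 15205 in WT mice and 14432, 15407 and 14342 in Pxmp2-/- mice, where the second mouse lay within the WT range. Its difference was -0.066, with a 95% interval from -0.25 to 0.12. Rpl38, known for its role in the translation of Hox mRNAs (1433472_x_at), read 14540, 14788 and 14403 in WT mice and 14168, 13697 and 13121 in Pxmp2-/- mice. Rps28 (1451101_a_at) read 14531, 14234 and 14810 in WT mice and 14186, 12874 and 12916 in Pxmp2-/- mice. For Rpl38 and Rps28 the groups did not overlap, with differences of -0.094 and -0.13 and limma adjusted p of 0.568 and 0.466. Rpl13a, a large-subunit protein also known from the interferon-induced silencing of inflammatory mRNAs (1455485_x_at), differed by -0.063.

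The stalk and the laminin receptor protein were represented by bright probe sets as well. Rplp0, the base of the stalk and a common reference gene (1419441_at), read 10086, 9702 and 9372 in WT mice and 9367, 10105 and 9420 in Pxmp2-/- mice. The ranges coincided almost fully, at a difference of -0.014 with a 95% interval from -0.21 to 0.18. Its sign turned with array weights and without WT 1, Pxmp2-/- 1 or Pxmp2-/- 3, and without single arrays the difference ranged from -0.049 to 0.013. Rpsa, a small-subunit protein also described as a laminin receptor (1448245_at), read 10588, 10817 and 10577 in WT mice and 10054, 9540 and 8671 in Pxmp2-/- mice. Its groups did not overlap, and it had the most negative difference of the top and upper bands, -0.18 ± 0.088 (SE, limma adjusted p = 0.342). Without Pxmp2-/- 3 the difference was -0.12.

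**Figure D2:**
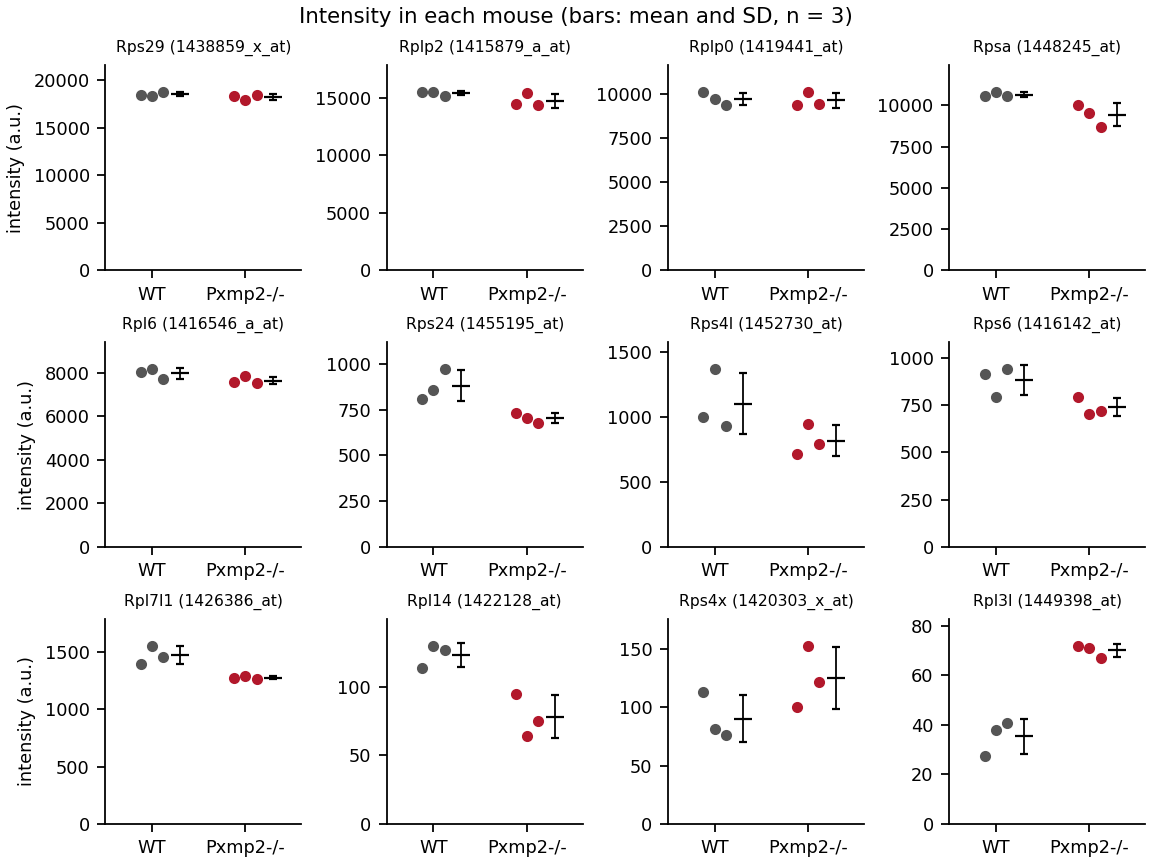
Intensity (arbitrary units, axes from 0) in each of 3 WT (grey) and 3 Pxmp2-/- (red) mice for 12 probe sets, with mean and SD (n = 3). Rps29, Rplp2, Rplp0 and Rpl6 overlap between genotypes, as do Rps4l and Rps4x, Rps24, Rps6, Rpl7l1, Rpl14 and Rpsa do not, and Rpl3l is below the level filter.

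The largest differences were found in lower-band probe sets. The one of Rpl14, a large-subunit protein (1422128_at), read 113, 130 and 127 in WT mice and 94.7, 63.8 and 75.1 in Pxmp2-/- mice. Its groups did not overlap, with a log2 difference of -0.58 ± 0.13 (SE) and a limma adjusted p of 0.171. This was the smallest adjusted p of any member. Under the alternatives that tested it, and without single arrays, the adjusted p of Rpl14 ranged from 0.0679 (without Pxmp2-/- 1) to 0.376 (without WT 3), and with the 60th percentile filter the probe set was too dim to be tested. It is the single probe set that names Rpl14 alone.

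Rps24, a small-subunit protein known from Diamond-Blackfan anemia, had 1 probe set of the lower band (1455195_at), with 808, 859 and 972 in WT mice and 732, 701 and 675 in Pxmp2-/- mice. The groups did not overlap, at a difference of -0.31 ± 0.097 (SE, limma adjusted p = 0.223). The other 4 tested probe sets of Rps24, all of the top band, differed by between -0.064 and -0.043. Rps6, the small-subunit protein that S6 kinases phosphorylate downstream of mTOR, had 2 tested single-symbol probe sets, both in the lower band with opposite signs. The brighter one (1416142_at) read 912, 795 and 942 in WT mice and 795, 704 and 720 in Pxmp2-/- mice, a difference of -0.25 (limma adjusted p = 0.281). Its groups were separated by a gap too small to see in rounded values. The dimmer one (1453466_at) read 66.0, 64.3 and 46.5 in WT mice and 61.8, 82.9 and 73.7 in Pxmp2-/- mice, a difference of 0.25, with overlapping groups.

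Other low p-values on the lower side belonged to lower-band probe sets too. Rpl27a (1437729_at) differed by -0.30, Rps25 (1430978_at) by -0.21, Rpl41 (1433530_at) by -0.20 and Rps3, which also takes part in DNA repair (1455600_at), by -0.16. Their limma adjusted p lay between 0.312 and 0.401, and the groups of Rpl41 and Rps3 did not overlap. On the higher side, a dim probe set of Rps4x, a small-subunit protein encoded on the X chromosome (1420303_x_at), read 113, 81.2 and 75.8 in WT mice and 101, 153 and 122 in Pxmp2-/- mice. The groups overlapped, at a difference of 0.41 ± 0.17 (SE, limma adjusted p = 0.295). The bright probe set of Rps4x (1416276_a_at) differed by -0.031. After Rps4x and the dimmer probe set of Rps6, the next on the higher side were Rps27 with 0.23, Rps20 with 0.14, Rpl22 with 0.081 and Rpl35 with 0.068, none with separated groups. Rpl39, Rpl13a, Rps10 and Rpl7 followed, at 0.034 or less.

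**Figure D3:**
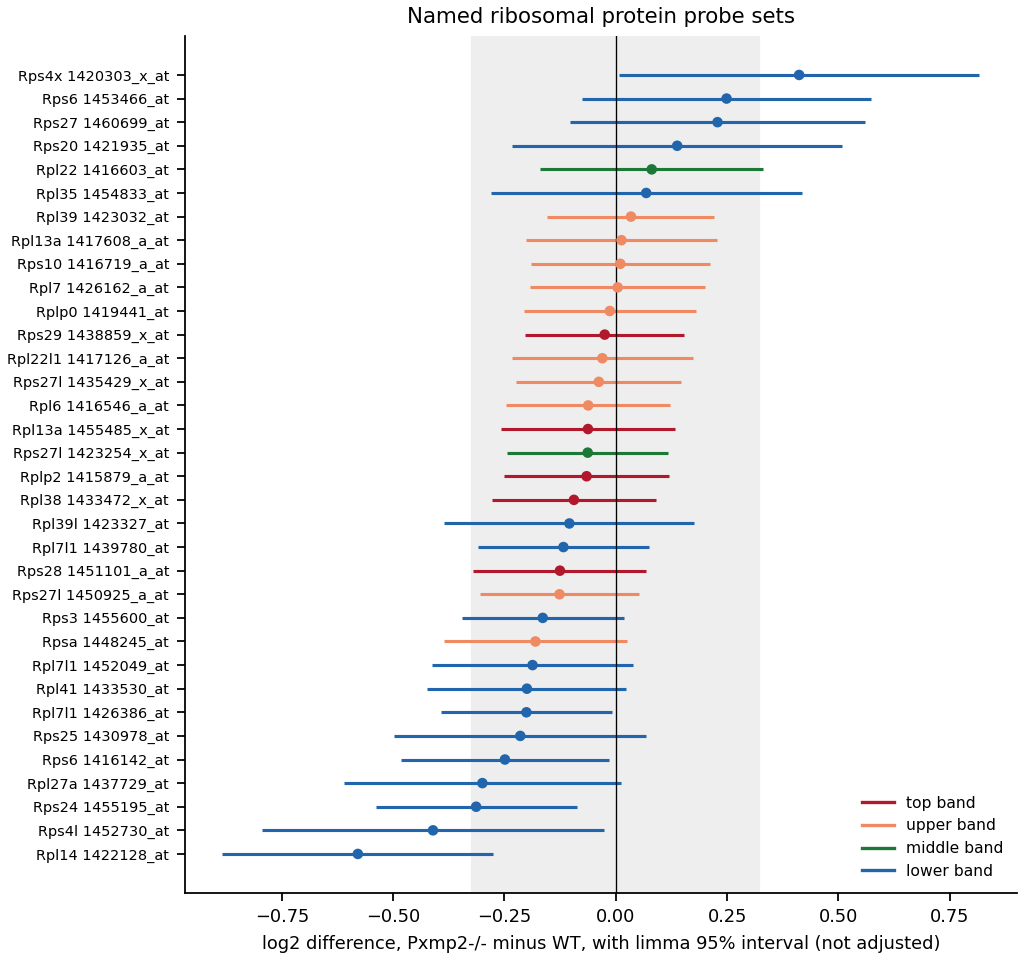
Log2 difference (Pxmp2-/- minus WT, points) with the 95% interval of limma (lines, not adjusted for the number of probe sets) for 34 named ribosomal protein probe sets, coloured by band. The shaded range is 1.25-fold in either direction (0.32 on the log2 scale). Intervals of the top and upper bands are short and include 0. The intervals clear of 0 belong to lower-band probe sets of Rpl14, Rps24, Rps4l, Rps6, Rpl7l1 and Rps4x.

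Probe sets of 1 gene were compared where they differed in brightness. In 22 genes with at least 2 tested probe sets, the range of log2 differences within a gene had a median of 0.099, and in no gene did it exceed 1. In 10 genes there was both a lower-band and a brighter probe set. The brightest probe set was below 0 in all 10, between -0.098 and -0.019. The dimmest was below 0 in 6 and further from 0 than the brightest in 7. Of these 10 dimmest probe sets, that of Rps24 had separate groups. Rpl14, Rps6 and Rpl7l1 had no single-symbol probe set in a brighter band. Probe sets with several symbols were not part of this comparison. Where each probe set lies in its transcript was not analysed here.

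The ribosomal subunits had similar medians, and their difference was not tested. The 46 tested probe sets of the large subunit had a median of -0.052 and those of the small subunit, 50 in number, of -0.051. In the large subunit 40 were below 0, with a range of differences from -0.58 to 0.081, and in the small subunit 44, with a range from -0.41 to 0.41. Probe sets whose names end in _x_at or _s_at, which by the array's naming can match related transcripts, made up 42 of the 96 and had a median of -0.052. Those ending in a plain _at numbered 26, were dimmer (median intensity 666 against 9497) and had a median of -0.11 with quartiles from -0.21 to 0.00078. The 103 tested probe sets that name a ribosomal protein together with other symbols had a median of -0.062. Of these, 88 were below 0 (85.4%, background 57.3%) and none passed the limma threshold. At an unadjusted p under 0.05, 5 were lower (4.85%, background 10.5%) and none higher (background 6.12%).

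Paralogs are close relatives that can replace or accompany the standard subunit. Rpl7l1, related to Rpl7 and active in ribosome assembly, was lower in all 3 of its probe sets with no overlap between groups. Its brightest (1426386_at) read 1397, 1555 and 1461 in WT mice and 1276, 1289 and 1266 in Pxmp2-/- mice. Its differences were -0.20, -0.19 and -0.12, with limma adjusted p of 0.285, 0.364 and 0.49, where the 3 probe sets of Rpl7 lay between -0.026 and 0.0042. Rps4l, the autosomal relative of Rps4x (1452730_at), read 1003, 1370 and 934 in WT mice and 719, 946 and 793 in Pxmp2-/- mice. Its groups overlapped, and its difference of -0.41 (limma adjusted p = 0.281) was -0.25 without WT 2. Rps27l, a p53 target related to Rps27, differed by -0.13, -0.063 and -0.038 in 3 probe sets, the first 2 of them with separate groups. Rpl22l1 (1417126_a_at) differed by -0.030, where its parent Rpl22, which represses it, differed by between -0.11 and 0.081. Rpl39l, known from testis, differed by -0.10 and Rpl39 by 0.034.

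Rpl3l, the striated muscle form of Rpl3, was too dim for the level filter. It read 27.4, 37.9 and 40.7 in WT mice and 72.0, 71.3 and 67.2 in Pxmp2-/- mice, so every Pxmp2-/- mouse was above every WT mouse. With no level filter its difference was 0.76 ± 0.12 (SE, limma adjusted p = 0.343, unadjusted 0.00061). Of 11 probe sets of the skeletal muscle markers, 3 were past the filter. The summed intensity of all 11 was 818 to 1066 in WT and 910 to 1386 in Pxmp2-/- mice. A dim probe set of the creatine kinase Ckm (1417614_at) read 45.7, 54.0 and 54.6 in WT and 151, 73.9 and 102 in Pxmp2-/- mice, with separate groups. The brighter one of Ckm, which makes up most of the sum in WT mice, read 563, 692 and 536 in WT and 484, 587 and 546 in Pxmp2-/- mice, with overlap and a difference of -0.14. That of Mb past the filter differed by 0.036. Acta1 and every probe set of Myh1, Myh4 and Tnnt3 were below the filter. Tnnt3 read 20.7, 20.0 and 19.4 in WT and 41.9, 22.1 and 28.1 in Pxmp2-/- mice, with separate groups. Acta1 averaged 34.5 in WT and 77.0 in Pxmp2-/- mice, and the brightest probe set of Myh1 35.1 and 89.7, both with overlap. Myh4 averaged 19.4 and 42.0 in 1 probe set and 23.7 and 22.4 in the other, also with overlap. The part of the muscle markers in the Rpl3l values was not tested.

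Pxmp2 lies on chromosome 5, where the knockout allele can carry linked sequence from the strain it was made in. The members on that chromosome were Rpl6 and Rplp0. Rpl6, a large-subunit protein (1416546_a_at), read 8052, 8184 and 7716 in WT mice and 7569, 7836 and 7533 in Pxmp2-/- mice, with overlap and a difference of -0.062 (95% interval -0.25 to 0.12, limma adjusted p = 0.712). Rplp0 is given above. Neither stood outside the range of the other bright members.

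The small shift was not carried equally by the mice. The median log2 deviation of the 96 members from their mean over 6 arrays was 0.048, 0.017 and 0.023 in WT mice and -0.013, -0.018 and -0.055 in Pxmp2-/- mice. For all tested probe sets it was 0.010, 0.016 and 0.033, and -0.00034, -0.0058 and -0.041. Pxmp2-/- 3 was the lowest array by both measures, and WT 1 was the highest for the members but not for all probe sets. In the top band the members of Pxmp2-/- 1 lay at 0.015, within the WT range of 0.014 to 0.038. Without Pxmp2-/- 3 the median of the top band was -0.028 in place of -0.051. In the lower band the WT values were 0.095, 0.0087 and 0.085 and the Pxmp2-/- values -0.056, -0.056 and -0.062.

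**Figure D4:**
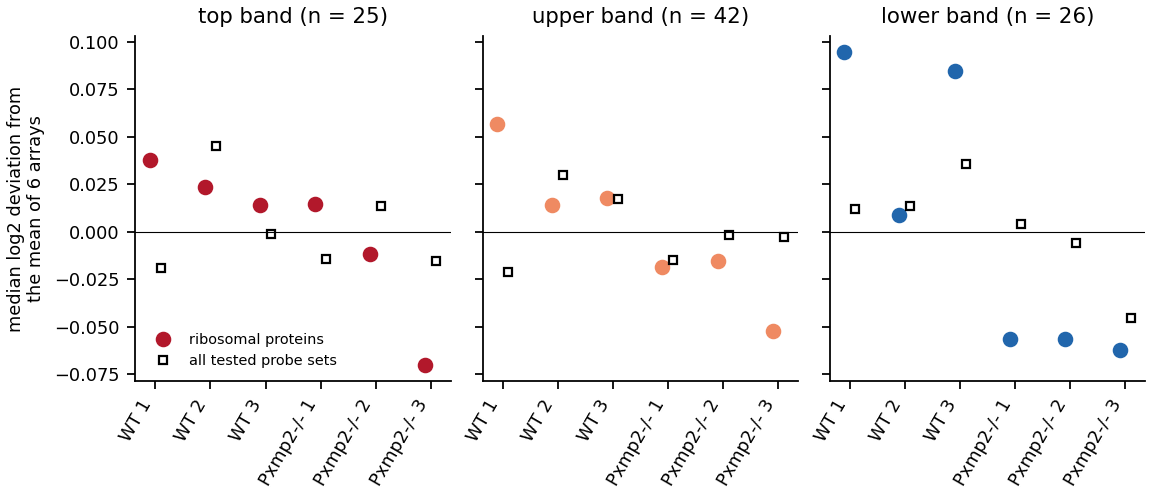
Median log2 deviation of ribosomal protein probe sets (filled circles) and of all tested probe sets (open squares) from the mean of 6 arrays, for each mouse and for the top, upper and lower bands. Pxmp2-/- 3 is lowest for the members in each panel, and the lower band separates the genotypes by the widest gap.

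No cell type marker passed the limma threshold, and the smallest adjusted p among them was 0.0589 (Lyz2), but the summed levels of some lists differed between the genotypes. The 9 macrophage probe sets, all tested, summed to 8328 to 8637 in WT and 10083 to 12500 in Pxmp2-/- mice, 7 of them higher at an unadjusted p under 0.05 (limma, background 6.12%). The other 2, of Mrc1 and Cd14, differed by -0.19 and -0.065, with overlapping groups. The 7 endothelial probe sets summed to 15086 to 16207 and 12236 to 13864, 4 of them lower at that p (background 10.5%). Those of Pecam1 (0.050) and Cdh5 (-0.14 in each of 2) had overlapping groups. The 10 T lymphocyte probe sets summed to 575 to 825 and 692 to 1272, with Cd3e at 11.7 or less in every mouse. Of 7 tested, none was below 0, and 2 were higher at that p (28.6%, background 6.12%). The 18 B lymphocyte probe sets summed to 3732 to 4118 and 3423 to 4293. Of 9 tested, 1 was higher and 1 lower at that p (11.1% each, background 6.12% and 10.5%). Summed adipocyte intensities were 129890 to 136790 and 126435 to 134786. The 12 mammary epithelial probe sets, of which 2 were past the filter, summed to 360 to 428 in WT and 436 to 568 in Pxmp2-/- mice. Those 2 went opposite ways at an unadjusted p under 0.05 (limma), Cdh1 by 1.0 and Krt19 by -0.39. The sums of macrophage, endothelial and epithelial markers did not overlap between genotypes, and those of the lymphocytes and adipocytes did. Their part in the ribosomal protein values was not tested. In whole tissue, fewer cells of a type and less RNA per cell cannot be told apart.

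Other genes of translation were read from whole lists in the same fit. Mitochondrial ribosomal proteins, encoded in the nucleus for the separate ribosome of mitochondria, had 137 tested probe sets of 76 genes with a median of -0.060. Of these, none passed the limma threshold, and 3 were higher (2.19%, background 6.12%) and 10 lower (7.3%, background 10.5%) at an unadjusted p under 0.05. The Mrps25 probe set with the smallest p (1449194_at) read 842, 869 and 877 in WT mice and 637, 645 and 687 in Pxmp2-/- mice, well apart. Its difference was -0.39 ± 0.080 (SE, limma adjusted p = 0.154). Mrpl15 differed by -0.39, Mrpl17 by 0.32 and Mrpl9 by 0.34.

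Ribosome assembly factors, which process ribosomal RNA and join it with the proteins, had the lowest median of the lists, -0.10 over 184 tested probe sets of 95 genes. None passed the limma threshold, while 35 were lower (19%, background 10.5%) and 4 higher (2.17%, background 6.12%) at an unadjusted p under 0.05. Of several probe sets of Ncl, the nucleolar protein nucleolin, that with the smallest p (1415772_at) read 277, 302 and 289 in WT mice and 209, 221 and 198 in Pxmp2-/- mice. The groups lay clearly apart, at -0.44 ± 0.085 (SE, limma adjusted p = 0.138). Tsr1, a late factor of the small subunit (1433502_s_at), differed by -0.40, the helicase Ddx51 by 0.36 and Nol9 by 0.28. Ddx51 lies on chromosome 5.

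Initiation factors had a median of -0.058 over 97 probe sets of 39 genes, with 5 higher (5.15%, background 6.12%) and 9 lower (9.28%, background 10.5%) at an unadjusted p under 0.05. A probe set of Eif4h, which aids the helicase Eif4a (1445746_at), was the single one in these lists to pass the limma threshold. It fell from 171, 143 and 161 in WT mice to 78.4, 71.7 and 71.6 in Pxmp2-/- mice, by 0.95 on the log2 scale (limma adjusted p = 0.0274), and Eif4h lies on chromosome 5. No initiation factor, Eif4h included, passed with no level filter or the replicate block. With the 60th percentile filter none passed either, but this Eif4h probe set was too dim to be tested there. The same held for 1 probe set per gene, which tests only the brightest of each gene. None passed without WT 1, 2 or 3 or Pxmp2-/- 2 or 3, and 2 probe sets did without Pxmp2-/- 1. Eif4e2 differed by -0.36, Eif2s3x by 0.52 and Eif2d by 0.33.

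Elongation and release factors had a median of -0.034 over 39 probe sets (0.014 with quantile normalization), with 2 higher, 2 lower (5.13% each, background 6.12% and 10.5%) and none past the limma threshold. The lowest p-values were those of Eif5a2 (0.38), Hbs1l (0.38), the ribosome recycling factor Abce1 (-0.42) and Eef1d (-0.26). Other mRNAs with a terminal oligopyrimidine tract had a median of -0.039 over 46 probe sets, with none higher, 4 lower (8.7%, background 10.5%) and none past the limma threshold on all 6 arrays (1 without Pxmp2-/- 1). They included the import receptor Ipo7 (-0.50), Npm1 (0.14) and Eif4b (0.15). Genes of the mTOR pathway had a median of -0.011 over 76 probe sets (0.034 with quantile normalization), with 3 higher (3.95%), 4 lower (5.26%) and none past the limma threshold. Among them were Sesn2 (0.27), the mTOR inhibitor Deptor (0.32), Larp1b (-0.25) and Fnip2 (-0.22). Fau, the precursor of a small-subunit protein outside the naming rule, differed by -0.022. These medians are descriptions, and no list was tested against another.

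**Figure D5:**
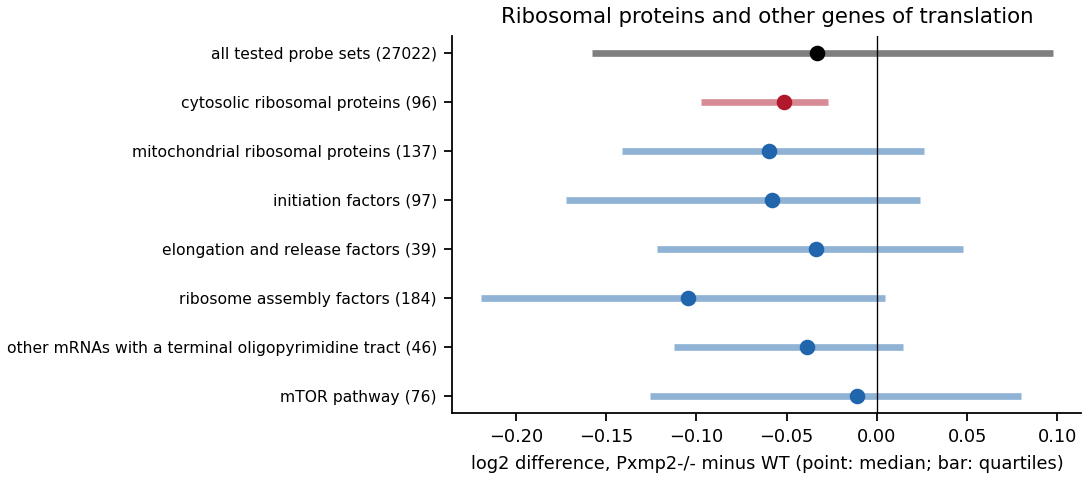
Median (points) and quartiles (bars) of the log2 difference, Pxmp2-/- minus WT, for all tested probe sets, cytosolic ribosomal proteins and 6 other lists, with the number of probe sets in brackets. The cytosolic ribosomal proteins have the narrowest bar, from -0.098 to -0.027, and ribosome assembly factors the lowest median, -0.10.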

How the data were processed

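The authors deposited intensities on a linear scale for 6 Affymetrix arrays (total RNA, biotin label, per the labels' protocols). Summarisation, scaling and genome build are not given in the sources used here. All 6 columns matched a sample (0 left over). Genotype and replicate number came from the sample titles, and each array is 1 mouse.

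Values were used as log2(intensity + 16), so fold changes of dim probe sets are understated. The 27022 probe sets above the 40th percentile (intensity 59.1) entered 1 fit of genotype (R 4.3.3, limma 3.58.1, eBayes, two-sided, Benjamini-Hochberg over all of them), and the members' rows were read from that fit. SE and 95% intervals are limma's. Gene names came from the platform annotation, and chromosomes from RefSeq (GRCm38.p6). Alternatives covered normalization, pseudocount, level filter, variance model, array weights, a replicate block, probe set choice and leaving out each array. The fit was tested on simulated data.

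Members and lists were chosen with earlier results of these data known. Named members were, in each direction, the 10 genes with the smallest p, the 5 brightest, those on chromosome 5, paralogs, stalk genes and Rpsa. For other lists, they were those past the threshold and the 2 per direction with the smallest p.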

Additional observations from a re-analysis of the deposited data

How the results depend on the processing

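No ribosomal protein probe set passed the limma threshold under any of the 17 alternatives, and the smallest adjusted p was 0.0679 (without Pxmp2-/- 1). The members' median stayed below 0 in all of them. Lower members at a limma unadjusted p under 0.05 (5) numbered 2 after quantile normalization, 3 with no level filter and 10 with a mean-variance trend. Over all tested probe sets the lower ones (2842 of 27022) numbered 2128, 3049 (of 45037) and 3148 in these settings. Without single arrays the lower members numbered 3 to 7 (3 without WT 2, WT 3, Pxmp2-/- 2 or Pxmp2-/- 3). Higher members (1, of Rps4x) numbered 0 after quantile normalization, median centring or the replicate block. They numbered 2 with no level filter and 0 to 1 without single arrays. The 60th percentile filter, leaving out _x_at and _s_at probe sets and 1 probe set per gene each removed that Rps4x probe set before testing. The count of 0 there is therefore no test of it. With the 103 tested several-symbol probe sets added to the 96 members, an alternative chosen after seeing the data, 10 were lower. The lower band's median (-0.15) was -0.12 after quantile normalization, -0.19 without _x_at and _s_at probe sets and -0.21 with 1 probe set per gene. After quantile normalization the medians were -0.016 for mitochondrial ribosomal proteins, -0.025 for initiation factors, 0.014 for elongation and release factors, -0.065 for assembly factors and 0.034 for the mTOR pathway. With 1 probe set per gene they were -0.091 for initiation, -0.072 for elongation factors and -0.040 for mTOR. Initiation factors were at -0.067 after median centring, -0.046 with a pseudocount of 64, -0.043 with no filter and -0.067 to -0.054 without single arrays, and elongation factors at -0.058 to -0.020. The count of initiation factors past the threshold was 1, a probe set of Eif4h that the 60th percentile filter left untested. This count was 0 with no filter, the 60th percentile filter, the replicate block or 1 probe set per gene, and 0 to 2 without single arrays. That of other oligopyrimidine mRNAs was 0 to 1. The cause was not tested. Deviations of arrays with the same number correlated at 0.022, 0.044 and -0.12, so numbers were not taken to pair mice. Over all tested probe sets 1 passed with the replicate block or no level filter, 5 with 1 probe set per gene, 26 with array weights and 34 with a mean-variance trend, in place of 17. Probe sets near the top of the scale can understate a change, which was not tested here.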
